A study of Mus musculus with 64 samples.

Results

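CD11c-positive cells that lacked CD103 and CD64 were examined among immune cells sorted from the colon of SCID mice with T cell transfer colitis. They were chosen by their own antibody counts, so the values of the 6 proteins used to choose them are given as a description only. After a filter on barcodes, a cell was taken when its centred log ratio exceeded 0.497 for CD11c and did not exceed 0.149 for CD103, 0.105 for CD64, -0.155 for CD3, 0.982 for Ly-6G and 3.162 for Ly-6C. The centred log ratio is the natural log of a protein's count plus 1, minus the cell's mean of that value over all 11 antibodies. The choice gave 5733 of 130442 cells, or 4.40%, and CD11b, at a threshold of 0.712, divided them into 2115 CD11b+ and 3618 CD11b- cells.

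Antibodies with sequence tags were counted on single cells in 9 libraries of the immune (EpCAM-/CD45+) sort. All mice were SCID, a genotype without mature T and B cells of its own that keeps innate lymphoid and myeloid cells, and all were labelled as receiving CD45RBhi cells, the naive T cell fraction that causes colitis in such hosts. The groups were mice treated with anti-IL-12p40 and sampled at week 7 (the antibody binds a subunit common to interleukins 12 and 23), and mice without it at weeks 0, 1, 2, 3, 4, 5, 6 and 7. Tissue was collected every 7 days and the antibody was given from day 10. The labels do not say whether the week 0 mice had received cells by then; 1 of the 16735 cells of that library was CD3+CD4+. Each library pooled colons of 3 animals and each group was 1 library, so the spread between pools of 1 group is unknown. The labels used here do not give the age of the mice.

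CD11c is an integrin chain abundant on dendritic cells and on many macrophages. Dendritic cells of the gut are commonly divided by CD103, the integrin chain that binds E-cadherin, and by CD11b, the integrin chain shared by most myeloid cells. Cells with CD11b and without CD103 are a mixed group in which monocyte-derived cells also fall, and CD64, a high-affinity Fc receptor, is used to set macrophages apart. CD11c is not restricted to myeloid cells, since activated lymphocytes can carry it. CD90.2 (Thy-1) marks T cells and innate lymphoid cells, CD127 is the interleukin 7 receptor chain of most innate lymphoid and many T cells, and KLRG1 is a lectin-like receptor found on some of both.

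Each library held between 11534 and 21229 barcodes, with 12914066 to 28723452 counts in total. In 3 of them the barcodes outnumbered the 16000 cells that were to be loaded. Library pairs shared 29 to 108 barcode sequences, and 158 of the chosen cells, or 2.76%, had a barcode seen in another library. The median total per chosen cell was 669, 374, 636, 990.5, 508, 729, 1092 and 645 counts in the untreated libraries from week 0 to week 7, and 735 in the treated one. It was below the median of all cells in each library, which ran from 576.5 at week 1 to 1566 in the treated library. The week 7 untreated library gave only 87 of the chosen cells, the fewest of any, and shares within its chosen cells carry the widest intervals. Ranges in brackets are 95% intervals by the exact Clopper-Pearson method and reflect counting error alone.

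CD11c counts on these cells varied between libraries. The median CD11c count per cell was 39, 25, 46, 79.5, 89, 104, 195 and 66 in the untreated libraries from week 0 to week 7, and 39.5 in the treated one. It was highest at weeks 5 and 6. Cells that met every other threshold but carried CD103, called the CD103+ phenotype here (7235 cells), had higher medians in every library, from 106 at week 2 to 333 at week 0, with 114.5 in the treated library. CD90.2+ cells without CD11c, CD11b, CD64 or CD3 had medians of 2 to 11 CD11c counts. CD11c was used to choose all of these cells. The share of the chosen cells whose CD11c ratio was more than 1 above its threshold ran from 36.4% at week 0 to 66.0% at week 4, and was 37.8% in the treated library. In the CD103+ phenotype it was 69.3% to 94.0% in untreated mice, and 74.5% in treated mice. Of T cells positive for CD3 and CD4, which are expected to carry little CD11c, 0.681% to 7.99% passed the CD11c threshold from week 1 to week 7.

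Many cells lay close to a threshold. Within 0.25 of the CD11c threshold, 869 chosen cells (15.2% of them) lay just inside, with a median of 18 CD11c counts, and 1091 cells lay just outside, with a median of 12. For CD103 there were 290 cells just inside and 277 just outside, with medians of 11 and 17 CD103 counts. For CD64 there were 538 and 640 cells, with medians of 20 and 39 CD64 counts. The numbers just inside and just outside were 379 and 290 for CD3, 51 and 47 for Ly-6G, and 577 and 371 for Ly-6C. Median counts of CD103 were 1 to 10, of CD64 1 to 17 and of CD3 1 to 10 over the 9 libraries. Ly-6C counts were high on all cell types here: its median was 61 to 278.5 counts on the chosen cells and 61 to 255 on the CD3+CD4+ T cells.

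**Figure D1:**
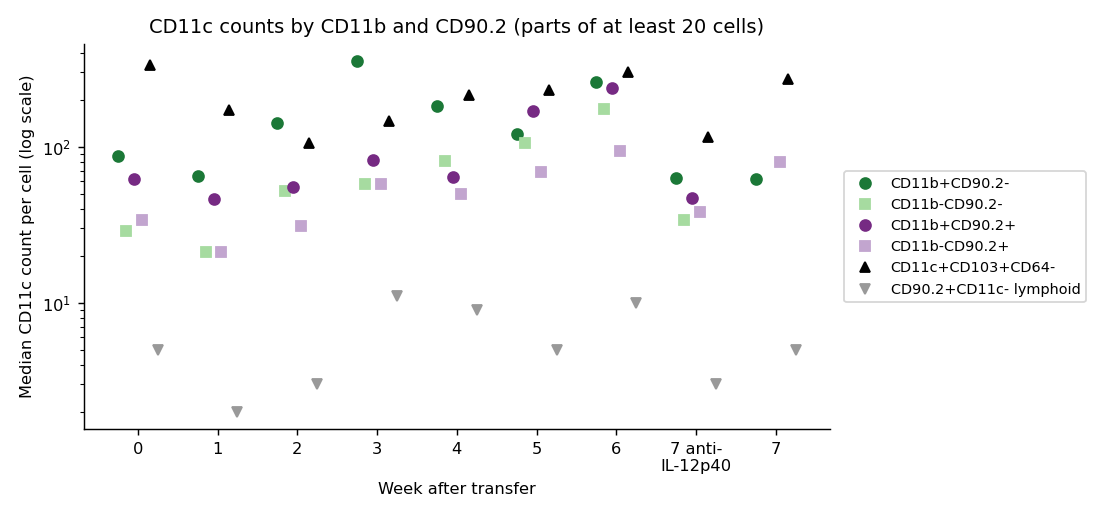
Median CD11c count per cell (log axis) by library, in week order with the treated week 7 library left of the untreated one, for the chosen cells divided by CD11b and CD90.2, for the CD103+ phenotype and for CD90.2+CD11c- lymphoid cells. Points stand for groups of at least 20 cells, and the lymphoid cells sit lowest, between 2 and 11 counts.

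Of the proteins without a threshold in the choice, CD90.2 was the most frequent over the pooled cells. By library, CD127 was more frequent at weeks 1 and 3, and CD11b at weeks 4, 5 and 6. Each of these proteins still enters the mean that is subtracted. A high CD90.2 count thus lowers the CD11c, CD103 and CD64 ratios used in the choice. How far this shaped the CD90.2+ share was not tested. CD90.2 was on 3409 cells, 59.5% of all, and only 1938 cells (33.8%) lacked both CD90.2 and CD4. A cell was called positive above a centred log ratio of 2.09, where the components of a mixture fitted over all libraries were equally probable. From week 0 to week 7 the CD90.2+ share was 71.4%, 60.3%, 70.6%, 47.1%, 29.9%, 28.7%, 41.0% and 54.0%, and it was 73.7% in treated mice. It was highest in the treated library and at weeks 0 and 2, and lowest at weeks 4 and 5. At week 0, where 71.4% of the chosen cells carried CD90.2, CD3+ cells were 0.604% of the library.

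CD90.2 counts on the chosen cells were spread widely within each library. The tenth, fiftieth and ninetieth percentiles were 25.9, 352 and 1706 counts at week 0, against 9, 29 and 443 at week 4, and 22.7, 376 and 1962 in the treated library. In the CD103+ phenotype the median was 40 counts at week 0, 16 at week 4 and 128.5 in the treated library.

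**Figure D2:**
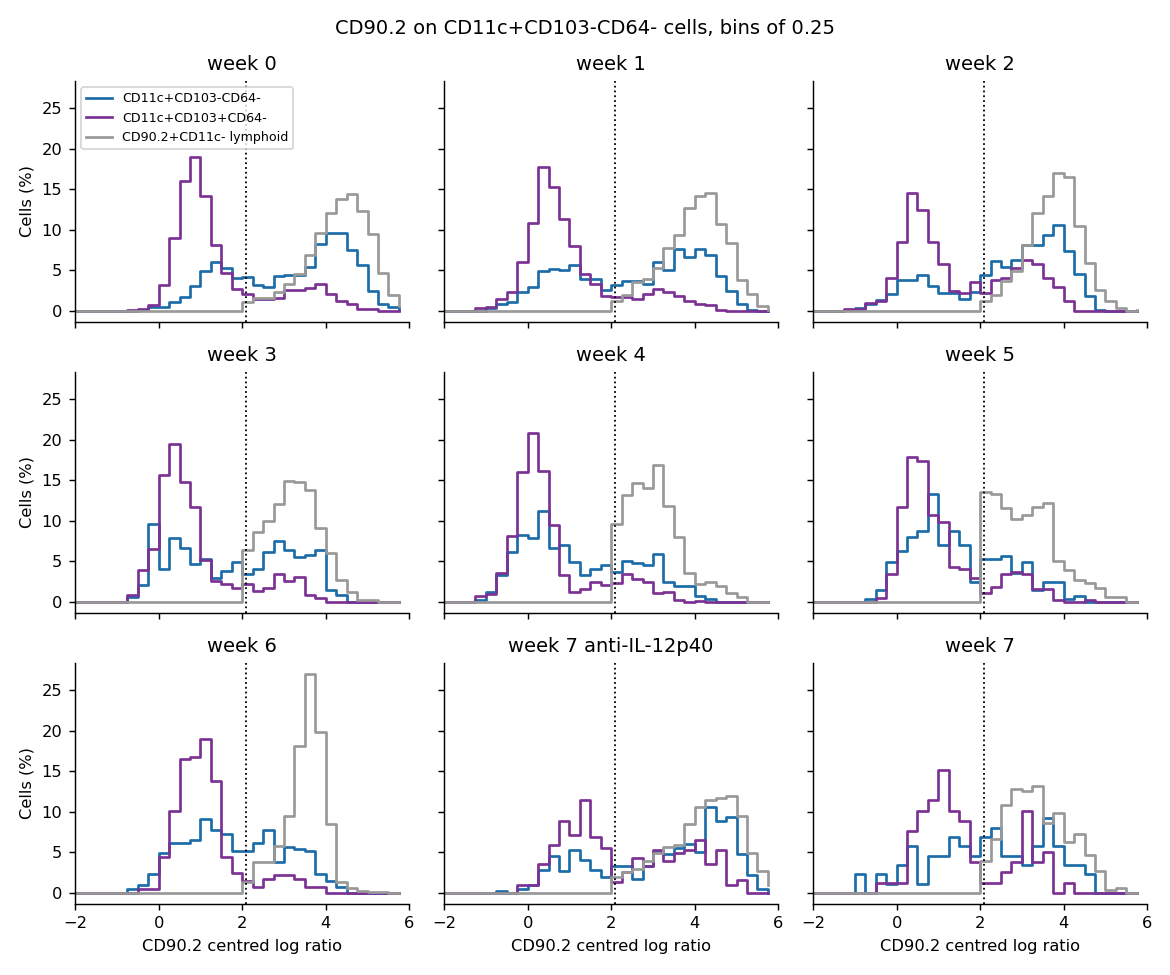
Distribution of the CD90.2 centred log ratio in each library, as percent of cells per bin of 0.25, for the chosen CD11c+CD103-CD64- cells, the CD103+ phenotype and CD90.2+CD11c- lymphoid cells; the dotted line is the threshold of 2.09. The chosen cells extend to both sides of it, with 71.4% above it at week 0 and 28.7% at week 5.

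CD127 was on 66.5%, 66.1%, 25%, 51.2%, 25%, 27.6%, 17.8% and 49.4% of the chosen cells from week 0 to week 7, and on 55.7% in treated mice. Its positive and negative cells were poorly separated (Ashman's D, the distance between mixture components in units of their spread, was 1.5, where 2 is usually asked), and its median was 2 to 10 counts. KLRG1 was on 23.9%, 22.4%, 40.7%, 19.5%, 17.5%, 14.0%, 6.32% and 31.0%, and on 24.4% in treated mice, at a median of 1 to 4 counts. CD4 was on 6.59%, 11.3%, 17.7%, 9.01%, 18.0%, 28.7%, 28.8% and 5.75%, and on 8.85% in treated mice.

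Neutrophils, taken here as CD11b+Ly-6G+ cells, should lack CD90.2, CD127, KLRG1 and CD4 and served as a background. The CD90.2+ share of the chosen cells exceeded theirs in each of the 9 libraries. At week 0 theirs was 48.0% of 125 cells, the highest, and at week 4 it was 3.93% of 1094 cells, the lowest. The CD127 and KLRG1 shares of the chosen cells also exceeded those of CD11b+Ly-6G+ cells in every library. The lowest shares of CD11b+Ly-6G+ cells were 1.83% for CD127 (week 4) and 0.774% for KLRG1 (week 6). High CD11b and Ly-6G counts lower the other ratios of the same cell. The median CD90.2 count was 29 on both at week 4 and higher on the chosen cells in all other libraries. It was 352 against 260 at week 0, but close at week 1 (133 against 130). The median CD127 count was not lower on CD11b+Ly-6G+ cells in any library (16 against 6 on the chosen cells at week 0). The median KLRG1 count was lower on CD11b+Ly-6G+ cells only at week 2 (1 against 3). The CD4+ share of the chosen cells did not exceed that of CD11b+Ly-6G+ cells in every library. At week 3 it was 9.01% of the chosen cells and 11.5% of CD11b+Ly-6G+ cells, at week 5 28.7% and 36.5%, at week 7 5.75% and 37.7%, and in treated mice 8.85% and 14.8%, so no CD4 expression is read there. Median totals of CD11b+Ly-6G+ cells were 1404 to 4575 counts, above those of the chosen cells.

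CD11b divided the chosen cells into portions that differed in the lymphoid proteins. CD90.2 was on 28.8% of CD11b+ and 64.6% of CD11b- cells on average over the 8 untreated libraries. The CD90.2+ shares of CD11b+ cells were 57.0%, 36.9%, 52.1%, 16.4%, 12.4%, 18.4%, 25.4% and 12% from week 0 to week 7, against 76.7%, 72.4%, 86.3%, 65.3%, 44.4%, 38.0%, 62.6% and 71.0% of CD11b- cells. They were lower in CD11b+ cells in 8 of 8 libraries, and the mean difference was -35.8 percentage points (SD 13.4, n = 8; 2-sided exact sign-flip permutation test over libraries, Benjamini-Hochberg adjusted p = 0.00994 over 14 comparisons). The unadjusted p of 0.00781 is the smallest that 8 libraries allow. Treated mice had 44.6% in CD11b+ and 81.9% in CD11b- cells. Raw counts showed it as well. In untreated mice the median was 21.5 to 145.5 CD90.2 counts on CD11b+ cells, against 60 to 445 on CD11b- cells. In treated mice it was 78.5 and 542. The median was lower on CD11b+ cells within each library.

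KLRG1 was on 13.7% of CD11b+ and 27.6% of CD11b- cells on average, a mean difference of -13.9 percentage points (SD 6.29, n = 8, exact permutation, adjusted p = 0.00994), lower in 8 of 8 libraries. CD127 was on 25% of CD11b+ and 52.2% of CD11b- cells, a mean difference of -27.2 points (SD 3.02, n = 8, exact permutation, adjusted p = 0.00994), also in 8 of 8. These differences rest on few molecules, and a high CD11b count lowers the other ratios of the same cell. The median KLRG1 count was 1, 1, 2, 4, 1, 2, 3 and 2 on CD11b+ cells from week 0 to week 7, against 1, 1, 4, 3, 1, 1, 3 and 3.5 on CD11b- cells, and 2 on both in treated mice. It was higher on CD11b+ cells at weeks 3 and 5 and equal at weeks 0, 1, 4 and 6, unlike the shares. The median CD127 count was 2 to 11.5 on CD11b+ and 1 to 9 on CD11b- cells and was higher on CD11b+ cells at weeks 2 and 3, unlike the shares. CD4 shares differed by 1.95 points (17.0% of CD11b+ and 15.0% of CD11b- cells; SD 4.0, n = 8; exact permutation, adjusted p = 0.227). That difference was 4.21 points with each library's own thresholds and 3.36 points with the CD11c threshold 0.5 higher (7 libraries, exact permutation, adjusted p = 0.0365 for each), and -2.94 points when cells were thinned to 150 counts.

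CD11c varied with CD11b among the chosen cells. Across cells within a library, the rank correlation of CD11c and CD11b counts was 0.188 (week 7, 87 cells) to 0.681 (week 3, 344 cells), and between CD11c and CD90.2 counts it was -0.117 to 0.439. Antibody counts of a cell share its depth, so these values are a description. Median CD11c counts were 71, 57, 76, 239.5, 154, 128, 249.5 and 63 on CD11b+ cells from week 0 to week 7, against 33, 21, 33, 58, 63, 76, 132 and 70 on CD11b- cells. CD11b+ cells had the higher median at weeks 0 to 6 and in treated mice (58 against 37.5), but not at week 7 without treatment, where 25 cells were CD11b+.

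A division by both CD11b and CD90.2 was chosen after the values had been seen and is given without a test. CD11b-CD90.2+ cells were the largest of the 4 portions at weeks 0 to 3 and at week 7, with 55.9%, 47.8%, 46.7%, 41.0% and 50.6% of the chosen cells, and 63.9% in treated mice. CD11b+CD90.2- cells, which have the phenotype usually given to CD11b+ dendritic cells and monocyte-derived cells, were the largest at weeks 4, 5 and 6, with 39.6%, 38.8% and 43.3%. In the other untreated libraries they were 11.6% (week 0), 21.5% (week 1), 22.0% (week 2), 31.1% (week 3) and 25.3% (week 7), and in treated mice 12.2%. CD11b-CD90.2- cells were 7.39% to 32.5%, and CD11b+CD90.2+ cells were 3.45% to 23.9%.

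**Figure D3:**
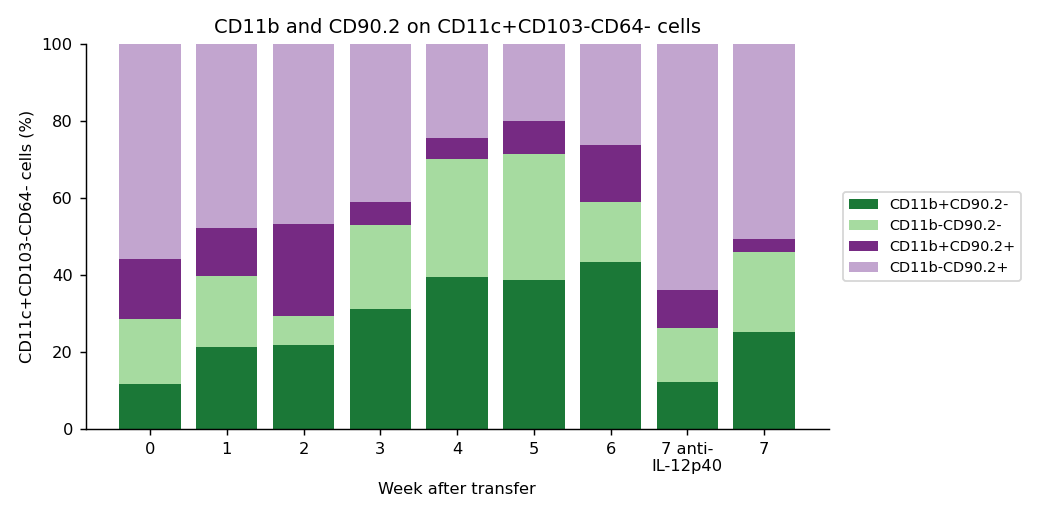
Percent of the chosen cells in each library that fall in the 4 portions given by CD11b and CD90.2, stacked to 100, in week order with the treated week 7 library left of the untreated one. CD11b-CD90.2+ cells fill 55.9% of the bar at week 0 and 63.9% in treated mice, and CD11b+CD90.2- cells fill 43.3% at week 6.

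The 4 portions differed in CD11c. The CD11b+CD90.2- cells had the highest median CD11c counts at weeks 0 to 4 and at week 6, with 87.5, 65, 141, 351, 181 and 261. Their median was above that of the CD103+ phenotype at weeks 2 and 3 (106 and 146 in the latter) and below it in all other libraries. The CD11b-CD90.2+ cells had 34, 21, 31, 58, 50, 69, 94 and 79.5 counts from week 0 to week 7 and 38 in treated mice, where CD11b+CD90.2- cells had 63. CD90.2, which set the CD11b-CD90.2+ cells apart, had medians of 307 to 751 counts on them over the 9 libraries. At weeks 5 and 6 the CD11b+CD90.2+ cells (25 and 63 cells) had the highest totals, 1672 and 2290 counts at the median, and a CD4+ share of 64.0% and 71.4%. Their CD3 medians were 21 and 30 counts, against 6 and 10 in CD11b+CD90.2- cells. Droplets holding 2 cells were not removed, and their part in these values was not tested.

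The CD11b-CD90.2+ cells were set beside CD90.2+ cells that lacked CD11c, CD11b, CD64 and CD3, which have a phenotype found on innate lymphoid cells. CD4 was on 7.29%, 7.95%, 15.1%, 14.2%, 46.3%, 63.6%, 91.7% and 68.8% of these CD11c- cells from week 0 to week 7 and on 13.3% in treated mice, so at weeks 5 to 7 most were CD4+. Their median CD3 count was 16 at week 6 and 2 at week 0. This comparison, too, was chosen after the values had been seen. Both groups were chosen by the same CD90.2 threshold, so their CD90.2 medians are a description. These were 307 to 751 counts on the CD11b-CD90.2+ cells and 316 to 982 on the CD11c- lymphoid cells. CD127 was on fewer of the CD11b-CD90.2+ cells, with 69.7%, 73.5%, 34.6%, 62.4%, 45.3%, 50.9%, 34.8% and 63.6% from week 0 to week 7. The CD11c- lymphoid cells had 96.0%, 94.5%, 77.1%, 83.8%, 76.6%, 74.0%, 56.6% and 86.5%. Treated mice had 58.8% and 91.8%. KLRG1 was on 26.9% of the CD11b-CD90.2+ and 45.4% of the CD11c- lymphoid cells at week 0, but on 45.5% and 15.1% at week 7, so the order was not the same at all weeks. Their median totals ran from 451 to 1351 counts, against 552 to 1494 on the CD11c- lymphoid cells, ranges that overlap.

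The CD103+ phenotype and the CD64+ phenotype (13318 cells positive for CD64 without CD3, Ly-6G and Ly-6C above threshold) were taken for comparison. The CD64+ phenotype was not chosen by CD11c or CD103. CD11c was on 50.2% (week 0) to 92.0% (week 4) of it in untreated mice, and on 15.8% in treated mice. CD90.2 was on 50.4% of the chosen cells and 19.6% of the CD103+ phenotype on average, a mean difference of 30.8 percentage points (SD 12.8, n = 8, exact sign-flip permutation, adjusted p = 0.00994), higher in 8 of 8 libraries. The CD103+ phenotype had 21.6%, 16.1%, 34.4%, 15.2%, 12.4%, 17.1%, 11.1% and 29.1% CD90.2+ cells from week 0 to week 7, and 48.4% in treated mice. Against the CD64+ phenotype the mean CD90.2+ share was 50.4% and 19.7%, a difference of 30.7 points (SD 14.9, n = 8, exact permutation, adjusted p = 0.00994), again higher in 8 of 8. Here the CD64+ phenotype ran from 2.73% at week 4 to 52.9% at week 0. The median CD90.2 count was lower on the chosen cells at week 0, with 352 against 585.5, where their total per cell was also lower. It was close at week 4 (29 against 27) and week 5 (69 against 68), and higher on the chosen cells in the other libraries.

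CD11b was on 40.5% of the chosen cells, 15.2% of the CD103+ phenotype and 90.3% of the CD64+ phenotype on average. The differences were 25.3 points from the CD103+ phenotype (SD 11.5, n = 8) and -49.8 points from the CD64+ phenotype (SD 11.2, n = 8), and both had an exact permutation adjusted p of 0.00994. Since CD103 enters the mean of a CD103+ cell, a high CD103 count lowers the ratios of its other proteins. The ratio was also centred over the 5 proteins without a threshold in the choice. The CD11b difference from the CD103+ phenotype was then -6.34 points (exact permutation, adjusted p = 0.428). The CD127 difference was 24.1 points, from 41.1% and 17.0%, and became -16.1 points in that setting (exact permutation, adjusted p = 0.0156). KLRG1 differed by 17.5 points, from 21.9% and 4.46%, and by 4.78 points in that setting (exact permutation, adjusted p = 0.273). The CD90.2 difference held in that setting, which kept the thresholds of the choice as they were.

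Against the CD64+ phenotype, KLRG1 was on 21.9% and 6.09% (15.8 points, SD 10.9, n = 8) and CD127 on 41.1% and 17.2% (23.9 points, SD 8.5, n = 8), both with an exact permutation adjusted p of 0.00994. Without cells that carried CD90.2 or CD4 the KLRG1 difference was 4.79 points (exact permutation, adjusted p = 0.0703). Unlike the shares, median KLRG1 counts were lower on the chosen cells at weeks 0, 1, 3, 4, 5 and 7, with 1 against 4 at week 0. They were equal at week 6 and higher on the chosen cells at week 2 (3 against 2). Median CD127 counts were lower on the chosen cells at weeks 0, 1, 3, 4, 5 and 7, with 6 against 20 counts at week 0, where the total per cell was also lower (669 against 1904). Past the threshold, CD4 differed from neither phenotype, with 15.7% of the chosen cells, 8.78% of the CD103+ phenotype (exact permutation, adjusted p = 0.0547) and 18.2% of the CD64+ phenotype (exact permutation, adjusted p = 0.609). The CD4 difference from the CD103+ phenotype passed when cells were thinned to 150 counts (13.8 points, exact permutation, adjusted p = 0.0137) and without week 7 (9.12 points, exact permutation, adjusted p = 0.0182), and was 0.387 points when centred over 5 proteins. In all, 11 of the 14 comparisons passed after adjustment and 12 had an unadjusted p under 0.05.

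**Figure D4:**
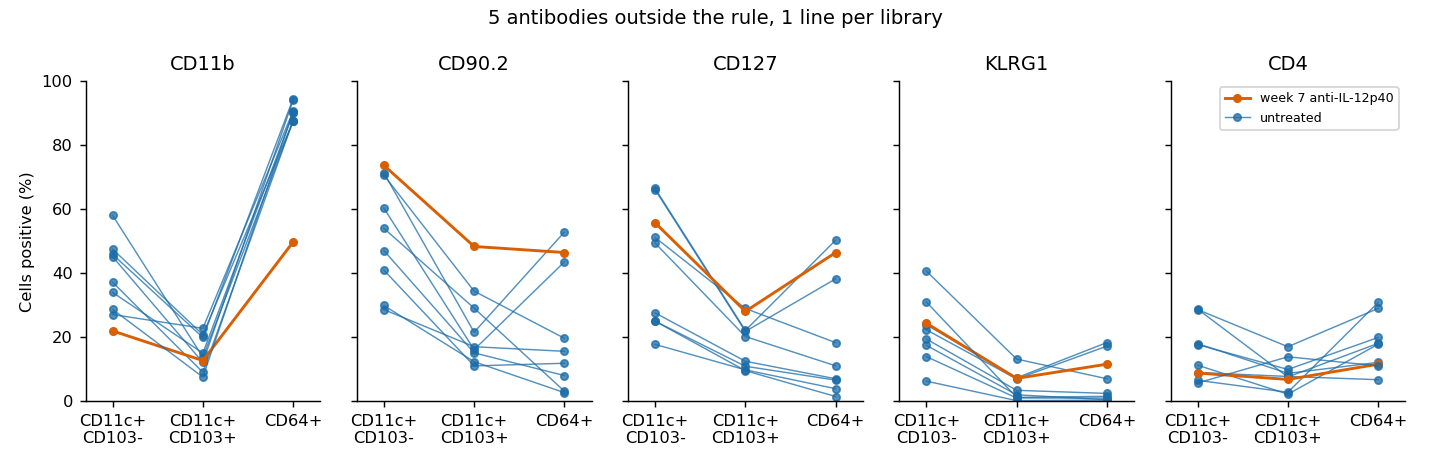
Percent of cells positive for each of 5 proteins without a threshold in the choice. Groups are the chosen CD11c+CD103- cells, the CD103+ phenotype and the CD64+ phenotype, with 1 line per library (8 untreated, 1 with anti-IL-12p40 at week 7). CD90.2 is higher in the chosen cells than in the CD103+ phenotype in every library, with means of 50.4% and 19.6% over the untreated ones.

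The series of weeks addresses how these cells changed as colitis developed. They were 10.2%, 7.02%, 4.84%, 2.74%, 3.19%, 2.06%, 3.74% and 0.731% of all cells from week 0 to week 7. The 3 highest shares were those of weeks 0 to 2, and the lowest was that of week 7. The rank correlation with week was -0.833 (exact permutation p = 0.0154; Benjamini-Hochberg adjusted p = 0.123 over 8 trends; n = 8), and Pearson's r was -0.872 (exact permutation p = 0.00253, adjusted p = 0.0202). Without weeks 0 and 7 they were -0.600 (exact permutation p = 0.242) and -0.729 (exact permutation p = 0.100). Without week 6 the rank correlation was -0.964 (exact permutation, adjusted p = 0.0222). Over all alternatives the correlation ran from -0.964 to -0.429, with an adjusted p of up to 0.798 (exact permutation).

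CD3+ cells were 0.604% of the library at week 0, 55.3% to 71.6% at weeks 3 to 6 and 88.1% at week 7, which lowers the summed share of all other cells. Among CD3- cells the chosen cells were 10.2%, 7.56%, 8.25%, 7.12%, 7.14%, 7.26%, 8.49% and 6.12% from week 0 to week 7. These shares stayed within a narrow band after week 0, with week 7 lowest. Their rank correlation with week was -0.524 (exact permutation p = 0.197, adjusted p = 0.393; Pearson r = -0.641, exact permutation p = 0.0815) and it was 0.143 without weeks 0 and 7 (exact permutation p = 0.803).

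Over the same weeks, 36.0%, 35.6%, 71.7%, 59.8%, 41.0%, 43.3%, 51.3% and 52.4% of CD11c+CD64- cells lacked CD103. Weeks 2 and 3 were highest and weeks 0 and 1 lowest, with no rank correlation past the threshold (0.381, exact permutation p = 0.360, adjusted p = 0.411; Pearson r = 0.207, exact permutation p = 0.625). The week 2 share came with few CD103+ cells, which were 1.91% of that library, against 12.7% at week 1.

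**Figure D5:**
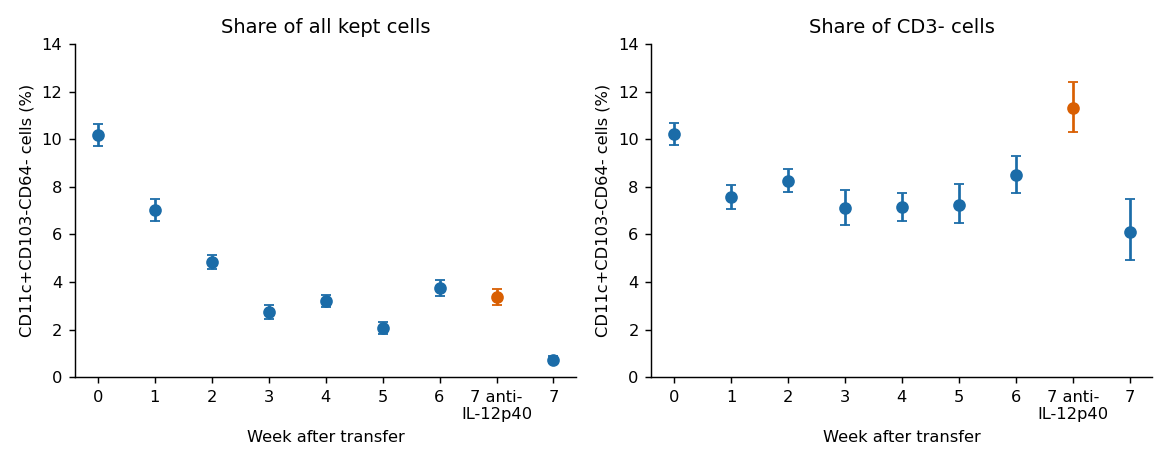
The chosen cells as percent of all cells (left) and of CD3- cells (right) by library, in week order, with bars for the 95% Clopper-Pearson interval; the orange point is the treated week 7 library, left of the untreated one. The share of all cells was 10.2% at week 0 and 0.731% at week 7, while the share of CD3- cells in untreated mice was 6.12% to 10.2%.

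Within the chosen cells, CD11b was on 27.1%, 34.0%, 45.9%, 37.2%, 45.2%, 47.6%, 58.1% and 28.7% from week 0 to week 7. The share was highest at week 6 and lowest at weeks 0 and 7. Its rank correlation with week was 0.429 (exact permutation p = 0.299, adjusted p = 0.411; Pearson r = 0.399, exact permutation p = 0.323). For CD90.2 it was -0.667 (exact permutation p = 0.0831, adjusted p = 0.332; Pearson r = -0.631, exact permutation p = 0.0994). For CD127 it was -0.571 (exact permutation p = 0.151, adjusted p = 0.393; Pearson r = -0.565, exact permutation p = 0.144). KLRG1 had -0.381 (exact permutation p = 0.360, adjusted p = 0.411; Pearson r = -0.313, exact permutation p = 0.455) and CD4 had 0.262 (exact permutation p = 0.536, the same after adjustment; Pearson r = 0.390, exact permutation p = 0.330). By rank correlation 0 of the 8 trends passed after adjustment and 1 had an unadjusted p under 0.05, and by Pearson's r the share of all cells alone passed. Without weeks 0 and 7 the rank correlations were 0.829 for CD11b and CD4 (exact permutation p = 0.0583 for each), -0.771 for CD90.2 (exact permutation p = 0.103), -0.943 for KLRG1 (exact permutation p = 0.0167), -0.600 for CD127 (exact permutation p = 0.242) and 0.0857 for the share without CD103 (exact permutation p = 0.919).

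With the week 7 library and its 87 chosen cells left out, 4 protein trends passed. The rank correlation was then 0.893 for CD11b and for CD4, -0.893 for KLRG1 (exact permutation, adjusted p = 0.0328 for each) and -0.857 for CD90.2 (exact permutation, adjusted p = 0.0476). CD4 was also on 36.5%, 20.7% and 37.7% of CD11b+Ly-6G+ cells at weeks 5, 6 and 7. The part of free antibody or shared droplets in the CD4 values was not tested.

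Anti-IL-12p40 at week 7 was compared with week 7 without it, 1 library against 1, so no test was made. The chosen cells were 3.36% of all cells (3.05 to 3.69; 418 cells) in treated mice and 0.731% (0.586 to 0.901; 87 cells) in untreated mice, a ratio of 4.60. Among CD3- cells they were 11.3% (10.3 to 12.4) in treated and 6.12% (4.93 to 7.49) in untreated mice, a ratio of 1.85. The ratio of the share of all cells was 10.5 with counts scaled to the library median, which left 142 chosen cells in the treated and 13 in the untreated library, and 2.03 with thresholds fitted in each library, and in that last setting that of the share of CD3- cells was 0.870, with the treated share lower. CD3+ cells were 70.3% of the treated and 88.1% of the untreated library. The treated share of CD3- cells was above that of every untreated week, of which week 0 was the highest at 10.2% (9.76 to 10.7), with intervals that overlap.

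The CD11b-CD90.2+ cells made up most of this difference. They were 2.15% of all cells (1.90 to 2.42; 267 cells) in treated and 0.370% (0.269 to 0.496; 44 cells) in untreated mice, a ratio of 5.81. CD11b+CD90.2- cells were 0.410% (51 cells) in treated and 0.185% (22 cells) in untreated mice, a ratio of 2.22, and CD11b-CD90.2- cells 0.474% (59 cells) and 0.151% (18 cells), a ratio of 3.14. CD11b+CD90.2+ cells numbered 41 in treated and 3 in untreated mice. With cells carrying CD90.2 or CD4 left out, the ratio of the share among CD3- cells was 0.974.

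Within the chosen cells, CD90.2 was on 73.7% (69.2 to 77.8) in treated and 54.0% (43.0 to 64.8) in untreated mice, a ratio of 1.36, which was 0.908 with counts scaled to the library median. CD11b was on 22.0% (18.1 to 26.3) in treated and 28.7% (19.5 to 39.4) in untreated mice, intervals that overlap. KLRG1 was on 24.4% and 31.0%, CD127 on 55.7% and 49.4%, and CD4 on 8.85% and 5.75%, in treated and untreated mice, with overlapping intervals for each. The CD4 ratio, 1.54, was 0.455 when cells were thinned to 150 counts. The median CD11c count was 39.5 in treated and 66 in untreated mice, and the median CD90.2 count 376 and 171. Lacking CD103 were 57.7% (54.0 to 61.4) of CD11c+CD64- cells in treated and 52.4% (44.5 to 60.2) in untreated mice. That ratio, 1.10, was 0.735 with chosen cells carrying CD90.2 or CD4 left out and 0.920 with each library's own thresholds.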

How the data were processed

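The authors deposited whole-number counts of 11 antibodies per barcode, not normalized, and 9 SCID libraries were used; the other 55 samples were not used here. The submitters' processing notes list the build mm10 beside Seurat 4.1.1 and Cell Ranger 6.0.2 and give none of them a role. How barcodes were picked is not stated in the labels. Barcodes under 50 counts and the top 1% of each library were left out, which kept 130442 of 131917. Doublets were not removed and no caller was run. The thresholds for CD4, CD90.2, KLRG1 and CD127 came from a 2-component Gaussian mixture fitted on 2000 cells of each library. All 11 antibodies are named, so none was picked by its value. The chosen cells, the comparisons and the lists were chosen with earlier results of these data known, among them a fall of the wider CD11c+CD64- phenotype with week. Trends used Spearman's rank correlation over the 8 untreated libraries with a 2-sided exact permutation p over 40320 orderings, adjusted over 8 trends. Phenotypes were compared within libraries by an exact test over 256 sign changes, adjusted over 14 comparisons, at 0.05, in shares of at least 20 cells. P-values measure the spread between these pools only, with 1 pool per week. The alternatives were another scaling, thinning, other thresholds and filters, other centring, other statistics and leaving out libraries; leaving out shared barcodes and leaving CD90.2+ or CD4+ cells out of all 3 phenotypes were chosen after seeing the data. The choice of cells, the rank trend and the sign-flip test were tested on simulated data. The simulated cells were drawn from real cells that had passed the same thresholds, so they do not test the thresholds. Tools were matplotlib 3.10.9, scikit-learn 1.9.0, scipy 1.17.1, numpy 2.4.6 and pandas 2.3.3 under Python 3.11.15.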

Additional observations from a re-analysis of the deposited data

How the results depend on the processing

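No paired analysis was possible because the labels give no replicate numbers that would pair groups; phenotypes were compared within libraries instead. With 1 pool per week, pool and week cannot be told apart. The week 7 untreated library is limited by its 87 chosen cells, and week 1 was the shallowest. The lower CD90.2, KLRG1 and CD127 shares of CD11b+ cells, and the higher CD90.2 share against both other phenotypes, kept their direction and passed in every alternative that gave a value. CD11b entered the centring in each of these, so its part in the lower ratios of CD11b+ cells was not tested. Median KLRG1 counts were not lower on CD11b+ cells at weeks 0, 1, 3, 4, 5 and 6, nor median CD127 counts at weeks 2, 3 and 6. Counts scaled to the library median left 1310 chosen cells and 5 untreated libraries with at least 20, where 6 were needed, so neither the comparisons of phenotypes nor the trends within the chosen cells could be run; the treated to untreated ratio of the share of all cells was 10.5 and that of the CD90.2+ share 0.908. With each library's own thresholds, the rank correlation with week was 0.0476 for the share of CD3- cells and 0.143 for KLRG1, the treated ratio 2.03 for the share of all cells and 0.870 for that of CD3- cells. Thinning each cell to 150 counts left out 0.119% to 8.62% of cells and gave fewer chosen cells in every library. There were 877 at week 0, against 1700 before, and 58 at week 7, against 87. The CD4 difference was then -2.94 points between CD11b+ and CD11b- cells and 0.984 from the CD64+ phenotype. Without CD90.2+ or CD4+ cells, the trend of the share of CD3- cells was 0.643 and the treated ratios 2.42 (all cells) and 0.974 (CD3- cells). Centred over 5 proteins, the CD11b and CD127 differences from the CD103+ phenotype were -6.34 and -16.1 points. Pearson's r for the share of all cells was -0.872, and without weeks 0 and 7 the rank correlation of the share of CD3- cells was 0.143. Over all alternatives the correlation of the share of all cells with week ran from -0.964 to -0.429. Leaving out each library gave rank correlations of -0.964 to -0.750 for the share of all cells, -0.821 to -0.286 for the share of CD3- cells and 0.143 to 0.893 for CD11b, 0 to 3 passing trends among CD4, CD90.2, KLRG1 and CD127, and a CD4 difference of -4.39 points (without week 6) to 0.609 points (without week 0) from the CD64+ phenotype. Why these values moved was not tested.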
